A study of Mus musculus with 12 samples.

Results

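A set of 10 cytokine genes that macrophages are known to express, outside the IL-1 family, were followed in tumor-associated macrophages (TAMs) of mouse melanoma: Tnf, Il6, Il10, Il12a, Il12b, Il27, Il15, Tgfb1, Osm and Tnfsf13b. They were chosen by symbol, each was on 1 row of both count tables, and they are 10 of the 55401 genes listed there. TAMs had been sorted from subcutaneous B16-F10 tumors as CD45+CD11b+Ly6C-Ly6G-F4/80+ cells, although 1 legend of the study writes the gate as Ly6C+Ly6G+. The AMPK-cKO group (3 samples) carried AMPKfl/flLyz2cre/cre, in which Cre is driven by the Lyz2 locus in the myeloid lineage and so is not limited to TAMs, and it was set against WT (3 samples), which carried AMPKfl/fl without a Cre in the labels. The methods place both of these groups at day 15 after implantation. The late-stage group (3 samples, day 15) was set against the early-stage group (3 samples, day 8), both from mice labelled WT with no AMPK allele named. No sample received a treatment, the methods give female C57BL/6 mice of 5 weeks, and the genotype labels of AMPK-cKO replicates 2 and 3 read Lyz3cre/cre and Lyz4cre/cre although their titles read Lyz2cre/cre. The first comparison addresses how AMPK, an energy-sensing kinase, affects TAMs, and the second how TAMs change as a tumor grows. The labels do not say whether the samples of a group came from separate mice, so the p-values measure the spread between these samples.

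Macrophages release cytokines that act on neighbouring cells through receptors on those cells. Tumor necrosis factor (Tnf) and B cell activating factor (BAFF, Tnfsf13b) belong to the TNF family, whose members are made as membrane proteins and shed. IL-12 is a dimer of p35 (Il12a) and p40 (Il12b), IL-27 is a dimer of p28 (Il27) and Ebi3, and both act through JAK kinases and STAT factors on T and NK cells. IL-6 and oncostatin M (Osm) signal through gp130 (Il6st), IL-15 is presented to lymphocytes on Il15ra, and IL-10 and TGF-β1 (Tgfb1) are known for restraining inflammation.

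Promoter windows of 3 members are shown because these are the members called in AMPK-cKO against WT that had an entry in the RefSeq promoter table (GRCm38.p6). Each window holds 250 bases before a transcript start and 50 after it, and capitals mark matches to the interferon regulatory factor (IRF) motif AANNGAAA, searched on both strands. Tnfsf13b has 2 entries, of which the downstream start (chr8:10006383-10006682, plus strand) is shown, Il12b lies at chr11:44399813-44400112 on the plus strand, and Tnf at chr17:35201958-35202257 on the minus strand.
Tnfsf13b: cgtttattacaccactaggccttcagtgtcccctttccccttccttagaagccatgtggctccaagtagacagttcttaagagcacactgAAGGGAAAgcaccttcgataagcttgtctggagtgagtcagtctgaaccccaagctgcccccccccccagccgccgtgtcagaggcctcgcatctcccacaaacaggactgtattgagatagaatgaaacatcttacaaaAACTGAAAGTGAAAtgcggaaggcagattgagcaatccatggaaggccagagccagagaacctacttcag
Il12b: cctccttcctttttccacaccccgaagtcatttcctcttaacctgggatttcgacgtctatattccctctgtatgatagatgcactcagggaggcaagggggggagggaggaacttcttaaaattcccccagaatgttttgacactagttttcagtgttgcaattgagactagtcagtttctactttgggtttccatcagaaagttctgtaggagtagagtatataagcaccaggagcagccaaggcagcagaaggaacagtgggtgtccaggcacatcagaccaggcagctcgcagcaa
Tnf: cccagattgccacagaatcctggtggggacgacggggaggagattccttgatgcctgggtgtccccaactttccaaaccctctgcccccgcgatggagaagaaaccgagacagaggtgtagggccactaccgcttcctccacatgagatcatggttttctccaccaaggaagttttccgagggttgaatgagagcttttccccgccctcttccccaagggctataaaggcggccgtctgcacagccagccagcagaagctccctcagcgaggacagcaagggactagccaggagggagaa
The Tnfsf13b window held 3 IRF matches, which began at bases -160, -20 and -14 from the start, and the last 2 of them overlap. The other Tnfsf13b entry (chr8:10006217-10006516) overlaps the window shown and held fewer IRF matches. Its 1 IRF match is the same site as the one at -160. Both entries held 1 AP-1 match (TGANTCA), which is also the same site. The windows of Il12b and Tnf held no match to the IRF, AP-1, GAS (TTCNNNGAA), CRE (TGACGTCA) or NF-kB motif, which says only that these letters are not in these 300 bases. Of 32817 promoter windows in the table, 23.9% held an IRF match, 7.81% an AP-1 match, 8.29% a GAS match, 1.79% a CRE match and 8.46% an NF-kB match. Among the other members, 1 NF-kB match was found in the Il6 window and 1 in the Tgfb1 window, and the Il6 window also held 1 AP-1 match. Entries were found for 6 of the 10 members, and Il10, Il15, Il27 and Osm are named only.

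The 12 libraries held 71019494 to 84470374 counts each, and levels are given as CPM, the count of a gene scaled by TMM to a fixed library total. In AMPK-cKO against WT, Prkaa1, the gene of the AMPKα1 catalytic subunit, had 3285 to 3467 counts in the AMPK-cKO samples and 4535 to 5165 in the WT samples (log2 fold change -0.60, adjusted p = 0.000226, edgeR). Counts over the whole gene do not resolve the deleted exons. Lyz2, the gene that carries Cre, had 676 to 1088 counts in AMPK-cKO and 671 to 975 in WT. It had 88212 to 249165 counts in the early-stage and late-stage samples, which are also labelled WT. Lyz2 thus did not separate WT from AMPK-cKO. Why it was as low in WT samples labelled without a Cre was not tested. The sum of 4 Y-linked genes was 3435 to 4035 counts in the early-stage samples and 0 to 4 in the late-stage samples, so sex and tumor stage cannot be told apart in that comparison. It was 9229 to 12183 counts in the WT and AMPK-cKO samples. The Y-linked counts of the WT, AMPK-cKO and early-stage samples do not match the female mice given in the methods. Why was not tested. All 12 macrophage markers examined were detected in every group. In these bulk samples, more cells of a type and more RNA per cell cannot be told apart.

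In AMPK-cKO TAMs, transcripts of Tnfsf13b, Il27 and Il12b were 2.27, 2.09 and 1.8 times as abundant as in WT TAMs, and those of Osm and Tnf were lower by smaller amounts. All 10 members were tested, 5 were called (adjusted p under 0.05 in edgeR's quasi-likelihood test over 17532 genes), 3 of them higher and 2 lower. Over all genes tested, 21.1% were called, 11.3% higher and 9.78% lower. The samples of both groups did not overlap for 5 of the 10 members, against 37.2% of all genes. In late-stage against early-stage TAMs, 9 members were tested and Tnfsf13b was the single member called, again higher. There 9.18% of 17630 genes were called, 4.31% higher and 4.88% lower, and 3 of the 9 members against 31.2% of all genes had no overlap.

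**Figure D1:**
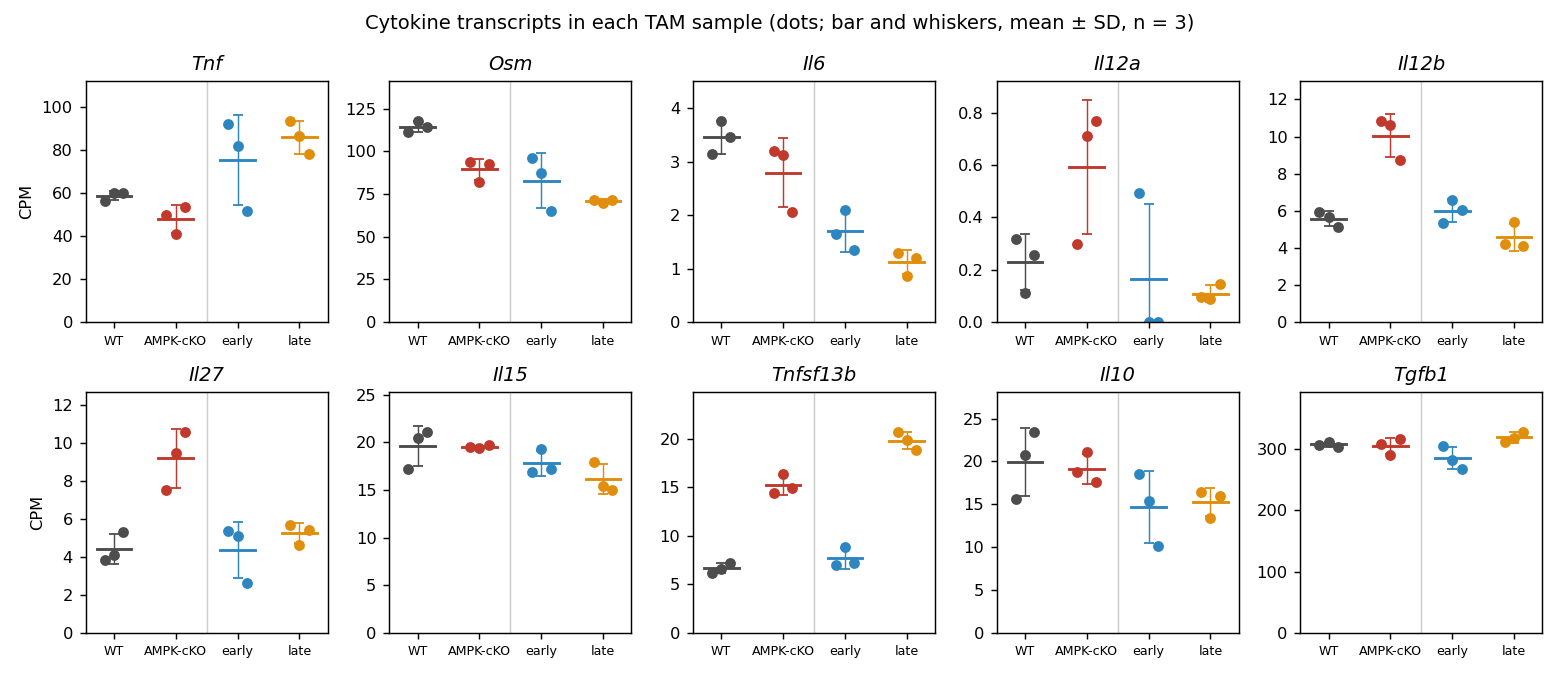
CPM of each member in every sample (points), with the group mean and SD (n = 3), for WT, AMPK-cKO, early-stage and late-stage TAMs; each panel has its own linear axis from 0. The Tnfsf13b points of AMPK-cKO (14.4 to 16.3) lie above those of WT (6.21 to 7.22). Those of late-stage (18.9 to 20.7) lie above those of early-stage (6.96 to 8.86).

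Tnfsf13b (ENSMUSG00000031497.9, chr8:10006467-10039072), which encodes the B cell survival factor BAFF, had 6.21, 6.62 and 7.22 CPM in the WT samples and 14.4, 16.3 and 14.9 CPM in the AMPK-cKO samples. The lowest AMPK-cKO sample lay well above the highest WT sample. The difference was 1.19 ± 0.11 (log2 fold change ± SE, 95% interval 0.95 to 1.43, adjusted p = 3.26e-05 by edgeR). In the stage comparison Tnfsf13b had 6.96, 8.86 and 7.16 CPM in the early-stage samples and 20.7, 19.8 and 18.9 CPM in the late-stage samples. These groups did not overlap either. The difference was 1.37 ± 0.13 (95% interval 1.09 to 1.65, adjusted p = 0.000194 by edgeR), and it was between 1.31 and 1.49 when any 1 library was left out. The WT samples, also placed at day 15, overlapped the early-stage samples and lay below all late-stage samples. Between WT and late-stage samples, mean levels of Osm (114 and 70.9 CPM) and Tnf (58.9 and 86.2 CPM) differed too. The 2 count tables were scaled separately, and why these groups differ was not tested. The related ligand Tnfsf13 (APRIL) was not called in either comparison, with log2 fold changes of -0.17 and 0.39. Of the receptors that BAFF binds on B cells, Tnfrsf13b (TACI) had log2 fold changes of 0.16 (adjusted p = 0.175, edgeR) in AMPK-cKO and -0.29 (adjusted p = 0.0689) in late-stage TAMs, and Tnfrsf13c (BAFF receptor) had -1.31 (adjusted p = 0.0663) and 0.65 (adjusted p = 0.261). Tnfrsf13c was at 0.795 CPM in WT and 0.321 CPM in AMPK-cKO on average.

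Tnf (ENSMUSG00000024401.14, chr17:35199381-35202007) had 56.4, 60.1 and 60.1 CPM in WT and 49.9, 40.8 and 53.7 CPM in AMPK-cKO. All 3 AMPK-cKO samples were below all 3 WT samples, and AMPK-cKO replicate 2 was the lowest. The log2 fold change was -0.29 ± 0.09 (adjusted p = 0.0481, edgeR), just inside the threshold. It was -0.27 without WT replicate 2, -0.28 without WT replicate 3, -0.32 without AMPK-cKO replicate 1 and -0.19 without AMPK-cKO replicate 2, and the call was lost each time, with an adjusted p of up to 0.148. The call was also lost with no filter on low counts (adjusted p = 0.0977). In the stage comparison Tnf had 92.1, 82.0 and 51.8 CPM in early-stage and 93.6, 86.7 and 78.1 CPM in late-stage samples, which overlapped (log2 fold change 0.19, 95% interval -0.20 to 0.59). Without early-stage replicate 3 the fold change was -0.02, and without early-stage replicate 1 it was 0.37. Of the TNF receptors, Tnfrsf1b was higher in AMPK-cKO (0.29 ± 0.04, adjusted p = 0.000581, edgeR) and lower in late-stage TAMs (-0.30 ± 0.06, adjusted p = 0.0155), whereas Tnfrsf1a had -0.10 and -0.20 and was not called.

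Il12b (ENSMUSG00000004296.14, chr11:44400063-44414033), which encodes the p40 chain shared by IL-12 and IL-23, had 5.93, 5.66 and 5.14 CPM in WT and 10.8, 10.6 and 8.74 CPM in AMPK-cKO. Every AMPK-cKO sample was above every WT sample (0.85 ± 0.13, 95% interval 0.57 to 1.13, adjusted p = 0.000878, edgeR). Late-stage samples had 4.19, 5.40 and 4.12 CPM against 5.35, 6.60 and 6.06 CPM in early-stage samples. Late-stage replicate 2 lay just above early-stage replicate 1 and the groups overlapped, and the difference of -0.39 (95% interval -0.77 to -0.01) was not called (adjusted p = 0.189, edgeR).

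Il12a (ENSMUSG00000027776.12, chr3:68690644-68698547), the gene of the p35 chain that makes IL-12 specific, was close to the limit of detection, with 23, 8 and 21 counts in WT and 22, 57 and 62 counts in AMPK-cKO. AMPK-cKO replicates 2 and 3 were above all WT samples and replicate 1 was within their range. The log2 fold change of 1.36 had a 95% interval of 0.04 to 2.68 and was not called (adjusted p = 0.141, edgeR). The early-stage samples had 41, 0 and 0 counts and the late-stage samples 8, 7 and 12 counts. Il12a failed the filter on low counts there and was not tested, and a count of 0 allows up to 3 counts. Il23a, whose product pairs with p40 as IL-23, had on average 0.132 CPM in WT and 0.262 CPM in AMPK-cKO and was not called.

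Il27 (ENSMUSG00000044701.5, chr7:126589010-126594941), the p28 chain, had 3.82, 4.09 and 5.30 CPM in WT and 7.5, 9.47 and 10.6 CPM in AMPK-cKO. The groups did not overlap, and the difference was 1.06 ± 0.17 (95% interval 0.68 to 1.44, adjusted p = 0.00144, edgeR). Its exons share 103 bases with Apobr on the opposite strand, and how strand was treated in counting is not given in the sources used here. Apobr itself differed by 0.21 on the log2 scale (adjusted p = 0.0533, edgeR). Ebi3, the partner chain of p28, was also higher in AMPK-cKO, at 43.0 against 32.7 CPM (0.40 ± 0.06, adjusted p = 0.00121, edgeR). In the stage comparison Il27 had 5.34, 5.07 and 2.65 CPM in early-stage and 5.69, 4.65 and 5.41 CPM in late-stage samples. Early-stage replicate 3 stood below the other 5 samples, and Il27 was not called (0.27, 95% interval -0.29 to 0.84), nor was Ebi3 (-0.02).

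Osm (ENSMUSG00000058755.3, chr11:4236420-4241026), a gp130 cytokine made by activated myeloid cells, had 111, 118 and 114 CPM in WT and 93.4, 82.2 and 92.7 CPM in AMPK-cKO. All AMPK-cKO samples were below all WT samples, and the difference was -0.35 ± 0.06 (95% interval -0.49 to -0.22, adjusted p = 0.00237, edgeR). In the stage comparison Osm had 96.1, 87.5 and 64.9 CPM in early-stage and 71.6, 69.9 and 71.2 CPM in late-stage samples. Early-stage replicate 3 was below all late-stage samples and the other two were above them. With all libraries the difference was -0.22 (adjusted p = 0.319, edgeR), and without early-stage replicate 3 it was -0.37 and was called (adjusted p = 0.0105). Without early-stage replicate 1 it was -0.10 and was not called. Its receptor gene Osmr had 1.48 CPM in WT and 1.53 CPM in AMPK-cKO on average.

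Il6 (ENSMUSG00000025746.11, chr5:30013114-30019981), which encodes the acute-phase cytokine IL-6, had 3.14, 3.75 and 3.46 CPM in WT and 3.20, 3.13 and 2.06 CPM in AMPK-cKO. The groups overlapped (-0.30, 95% interval -0.76 to 0.15, adjusted p = 0.348, edgeR). Late-stage samples had 1.30, 0.862 and 1.2 CPM and early-stage samples 1.64, 2.09 and 1.34 CPM, without overlap but not called (-0.60, 95% interval -1.26 to 0.07, adjusted p = 0.255). Of its receptor chains, Il6ra was higher in AMPK-cKO (0.32 ± 0.07, adjusted p = 0.0107, edgeR) and Il6st was lower in late-stage TAMs (-0.37 ± 0.08, adjusted p = 0.0239). Il6st in AMPK-cKO (0.06) and Il6ra in late-stage TAMs (0.16) were not called.

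Il15 (ENSMUSG00000031712.10, chr8:82331632-82403222), a survival factor of NK and memory T cells, had 17.2, 20.4 and 21.1 CPM in WT and 19.5, 19.5 and 19.7 CPM in AMPK-cKO. The AMPK-cKO samples lay within the WT range, and the 95% interval of the log2 fold change was -0.21 to 0.21. Its presenting receptor Il15ra was higher in AMPK-cKO, at 15.3 against 8.64 CPM (0.82 ± 0.10, adjusted p = 0.000182, edgeR). In the stage comparison Il15 had 16.9, 19.3 and 17.2 CPM in early-stage and 17.9, 15.4 and 15.0 CPM in late-stage samples, which overlapped (-0.14, adjusted p = 0.491), and Il15ra was not called either (-0.09).

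Il10 (ENSMUSG00000016529.5, chr1:131019845-131024974) had 15.6, 20.7 and 23.5 CPM in WT and 18.7, 21.1 and 17.6 CPM in AMPK-cKO. The groups overlapped, with a 95% interval of -0.37 to 0.25. The early-stage samples had 18.5, 15.4 and 10.1 CPM and the late-stage samples 16.4, 13.4 and 16 CPM, which also overlapped (0.06, 95% interval -0.38 to 0.50). Il10ra, the ligand-binding receptor chain, was higher in AMPK-cKO, at 331 against 208 CPM (0.67 ± 0.05, adjusted p = 6.31e-06, edgeR), and was not called in late-stage TAMs (0.07).

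Tgfb1 (ENSMUSG00000002603.15, chr7:25687002-25705077) had 307, 312 and 304 CPM in WT and 309, 291 and 317 CPM in AMPK-cKO. The groups overlapped within a narrow range, and the 95% interval of the log2 fold change was -0.12 to 0.09. Late-stage samples had 311, 318 and 328 CPM and early-stage samples 305, 282 and 268 CPM, without overlap. That difference of 0.16 ± 0.07 was not called with all libraries (adjusted p = 0.2, edgeR) and was called without early-stage replicate 1 (0.21, adjusted p = 0.0433). The receptors Tgfbr1 and Tgfbr2 were both higher in late-stage TAMs, by 0.64 ± 0.12 (adjusted p = 0.0106, edgeR) and 0.40 ± 0.07 (adjusted p = 0.00663), and Tgfbr1 was higher in AMPK-cKO (0.46 ± 0.07, adjusted p = 0.00083). Nrros, which tethers latent TGF-β1 on myeloid cells, had -0.08 in AMPK-cKO and -0.23 in late-stage TAMs and was not called.

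**Figure D2:**
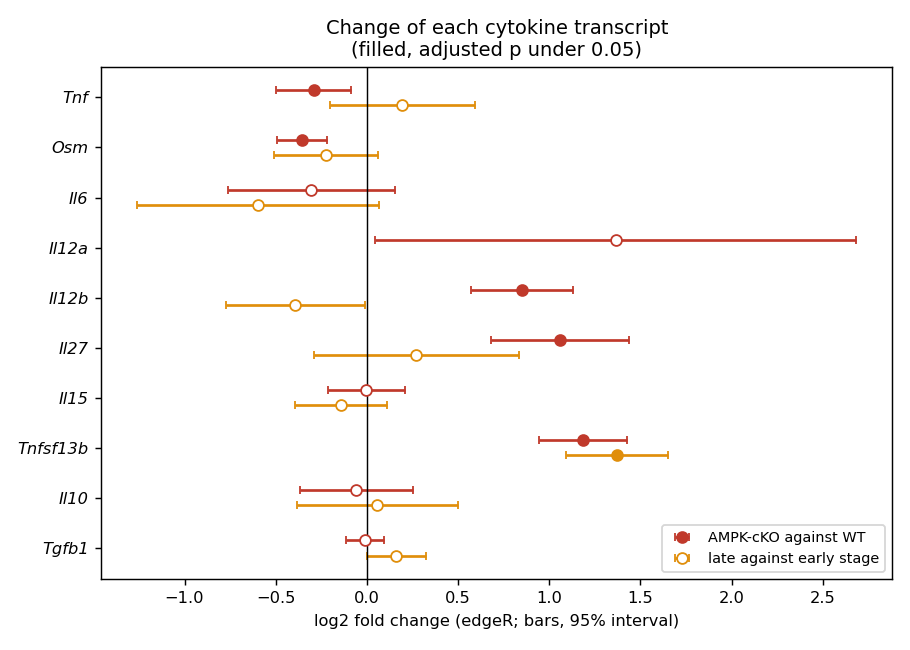
Log2 fold change of each member with its 95% interval, for AMPK-cKO against WT and late-stage against early-stage TAMs; filled points were called at an adjusted p under 0.05 in edgeR. Tnfsf13b lies to the right in both comparisons (1.19 and 1.37), Osm and Tnf lie to the left in AMPK-cKO (-0.35 and -0.29), and Il12a was tested in the first comparison alone.

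Early-stage replicate 3 had the lowest value of the 6 samples for 5 members (Tnf, Il10, Il27, Tgfb1 and Osm) in the stage comparison. A chi-square per degree of freedom over all genes tested was 130.8 between early-stage replicates 1 and 3, against 9.52 to 59.5 for the other pairs within groups. That value does not say which of them is the odd library. Without early-stage replicate 3 the late-stage against early-stage log2 fold changes were 0.012 for Il27, -0.15 for Il10 and 0.12 for Tgfb1, none of them called. Without early-stage replicate 1 they moved the other way, to 0.45 for Il27, 0.26 for Il10 and 0.21 for Tgfb1, of which Tgfb1 alone was called. Values of Tnf and Osm are given above.

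Divided by the length of their merged exons, the 10 members spanned a wide range of levels. In WT TAMs the order was Tgfb1 (61.0 CPM per kb), Osm (50.3), Tnf (35.9), Il10 (15.2), Il15 (8.65), Il27 (4.31), Il12b (2.84), Il6 (1.42), Tnfsf13b (0.973) and Il12a (0.135), and the 3 samples of each member did not overlap those of its neighbours. In AMPK-cKO TAMs Il27 (8.99 CPM per kb) stood beside Il15 (8.64) with overlapping samples, and Tnfsf13b (2.21) stood above Il6 (1.15). Late-stage TAMs had Tnf (52.6 CPM per kb) above Osm (31.2), with no overlap. Tnfsf13b (2.88) stood above Il12b (2.32) there, but their samples were barely apart. The lowest Tnfsf13b sample was at 2.748 CPM per kb and the highest Il12b sample at 2.743. In early-stage TAMs Tgfb1 (56.6 CPM per kb) overlapped Tnf (45.9) and Tnf overlapped Osm (36.5), as did Il10 (11.2) with Il15 (7.86) and Il27 (4.26) with Il12b, while the other neighbours did not overlap. The length of exons used in these cells is not known, so the levels of members with several transcripts are approximate.

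**Figure D3:**
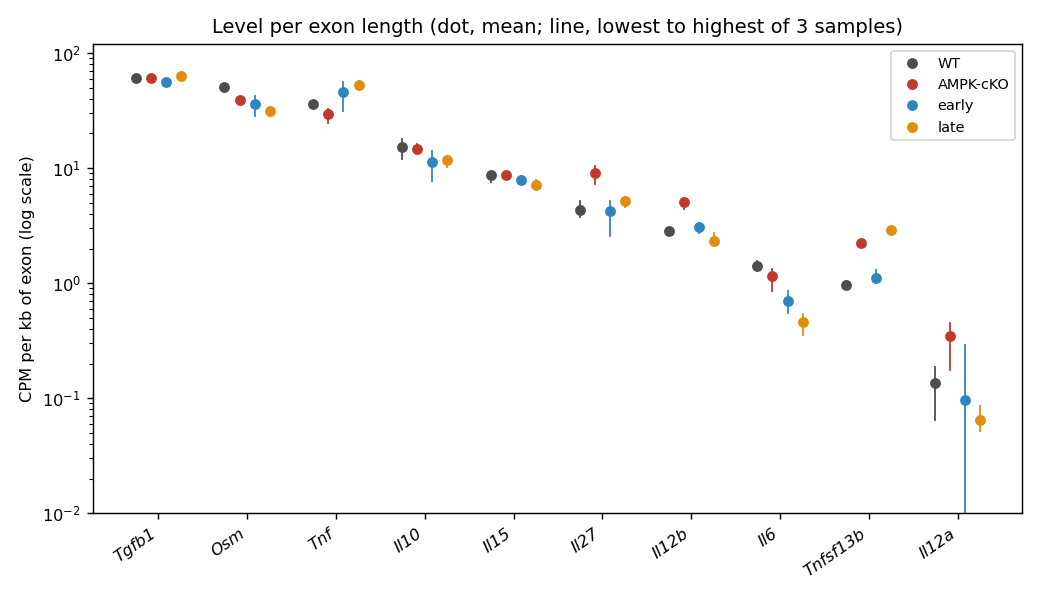
Level of each member in CPM per kb of merged exon on a log axis, as the mean and the lowest-to-highest range of 3 samples in each group. Tgfb1 is highest in all 4 groups (56.6 to 63.3), and the early-stage Il12a range runs off the axis because 2 samples were at 0.

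Of 20 receptor genes of these cytokines, 19 were tested in AMPK-cKO against WT, 11 were higher and 1 was lower. Over all genes tested, 11.3% were higher and 9.78% lower. The receptors had a median log2 fold change of 0.29 against -0.0037 over all genes tested. The 4 with the smallest adjusted p were Il2rb (1.21 ± 0.06, adjusted p = 7.72e-07 by edgeR) and Il2rg (0.54 ± 0.05), which are chains of the IL-15 receptor, Il12rb1 (1.18 ± 0.08), a chain of the IL-12 and IL-23 receptors, and Il10ra. The single lower gene was Il10rb (-0.24), the second IL-10 receptor chain. In late-stage against early-stage TAMs, 9.18% of all genes were called. Of the 20 receptors, 3 were higher (Tgfbr1, Tgfbr2 and Il27ra) and 4 were lower (Tnfrsf1b, Il6st, Lifr and Il10rb), with a median of -0.14 against 0.0027 over all genes. These counts fell to 1 higher and 0 lower without early-stage replicate 2 or late-stage replicate 2, and to 1 and 1 without late-stage replicate 1. The lower count fell to 0 without late-stage replicate 3.

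Of 13 genes for partner chains and processing, 12 were tested in each comparison. In AMPK-cKO, 3 were higher and 0 lower: Ebi3, Rhbdf2 (0.25 ± 0.05, adjusted p = 0.00467, edgeR) and Adam17 (0.19 ± 0.05, adjusted p = 0.0157). Adam17 is the protease that sheds TNF, and Rhbdf2 encodes its trafficking partner iRhom2. The median of the list was 0.0032, against -0.0037 over all genes tested, of which 21.1% were called. In late-stage TAMs none of the 12 was called by edgeR, against 9.18% of all genes (4 of the 12 had an unadjusted p under 0.05). With DESeq2, 1 was called higher and 1 lower.

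**Figure D4:**
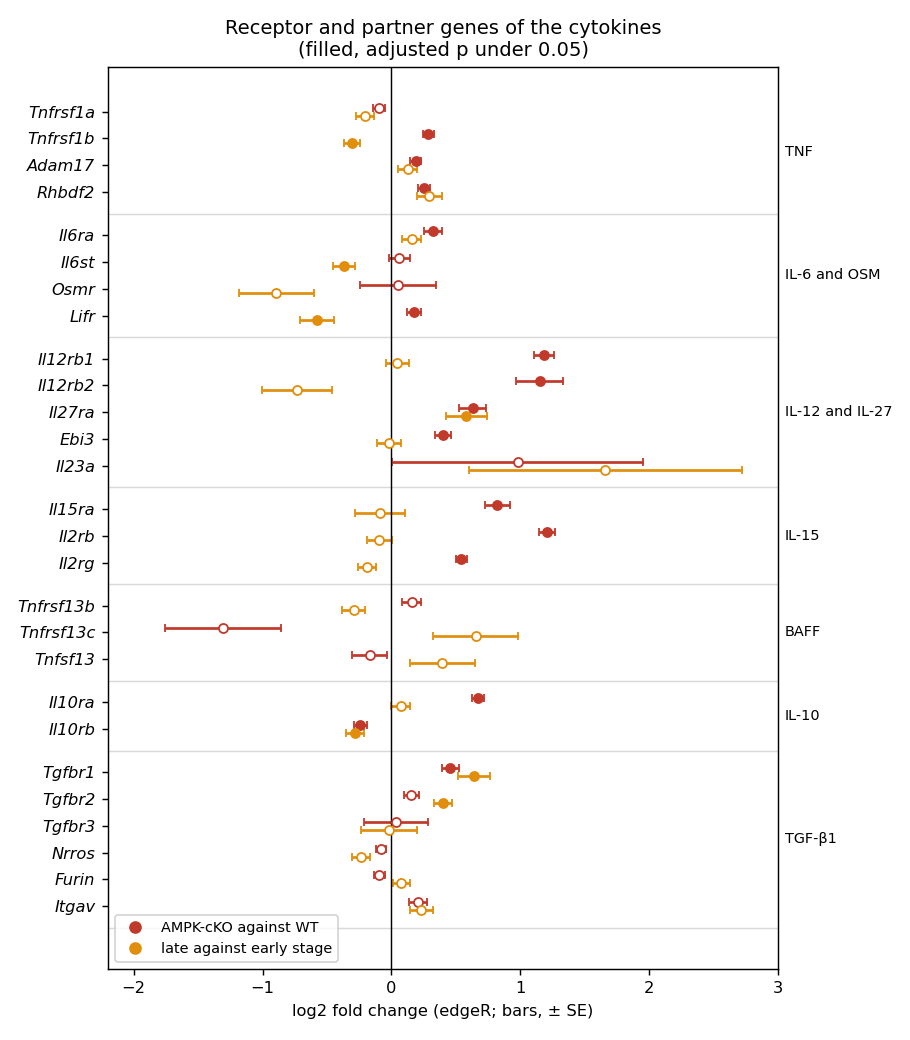
Log2 fold change with its SE of the receptors and partner chains, grouped by ligand, for AMPK-cKO against WT and late-stage against early-stage TAMs. Il2rb (1.21), Il12rb1 (1.18) and Il15ra (0.82) lie to the right in AMPK-cKO, and Tgfbr1 (0.64) and Tgfbr2 (0.40) lie to the right in late-stage TAMs.

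Of 29 signalling and feedback genes, 18 were higher and 1 was lower in AMPK-cKO (median 0.29), against 11.3% and 9.78% of all genes. Among those with the smallest adjusted p were Socs1 (1.5 ± 0.10, adjusted p = 3.05e-06 by edgeR), a feedback inhibitor of JAK kinases, Skil (0.64 ± 0.05), a repressor of SMAD activity, and Traf1 (0.76 ± 0.06), an adaptor of TNF receptors. The lower gene was Nfkbia (-0.32), which encodes the NF-kB inhibitor IκBα. In late-stage TAMs 2 were higher, Smad7 (0.74 ± 0.15, adjusted p = 0.0136, edgeR), an inhibitor of TGF-β signalling, and Tnip1 (0.32). Nfkbie (-0.52) and Stat4 (-0.53) were lower, and 9.18% of all genes were called in that comparison. The higher count ranged from 0 to 5 when 1 library was left out, with 5 without early-stage replicate 1 and 0 without early-stage replicate 2 or any 1 late-stage library.

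Among 26 regulators of cytokine transcription and mRNA decay, 13 were higher and 3 lower in AMPK-cKO (median 0.21), against 11.3% and 9.78% of all genes. Irf1 (1.06 ± 0.05, adjusted p = 3.3e-07 by edgeR), Batf3 (1.12 ± 0.10) and Nfkb1 (0.40 ± 0.04) were higher. Jun (-0.37 ± 0.04, adjusted p = 9.06e-05), Atf3 (-0.30) and Zfp36 (-0.21), whose product promotes decay of Tnf mRNA, were lower. Without WT replicate 1 the lower count was 5. In late-stage TAMs Nfkb1 (0.26) was higher, and Nfil3 (-0.62 ± 0.09, adjusted p = 0.0024), Zfp36l1 (-0.47 ± 0.07), Hif1a (-0.61 ± 0.11) and Maf (-0.42 ± 0.09) were lower. Maf is a transcription factor known for driving Il10. Of all genes, 4.31% were higher and 4.88% lower in late-stage TAMs. The lower count of regulators was 11 without early-stage replicate 3. The higher count was 3 without early-stage replicate 1 and 0 without any other single library.

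Of 39 other cytokine genes, 35 were tested in AMPK-cKO against WT, 15 were higher and 5 lower (median 0.38), against 11.3% and 9.78% of all genes. Inhba, an activin subunit (1.28 ± 0.08, adjusted p = 2.44e-06 by edgeR), and Il17a (2.90 ± 0.32, 0.257 to 1.93 CPM) were higher. Gdf15, a stress-induced TGF-β family member (-2.45 ± 0.10, 108 to 19.8 CPM), Igf1 (-1.10 ± 0.08), Tnfsf9 (-0.54), Tnfsf12 (-0.23) and Areg (-0.54) were lower. Without AMPK-cKO replicate 1 the higher count was 9, and without AMPK-cKO replicate 2 the lower count was 3. In late-stage TAMs 36 were tested, of which Tgfb3 (0.84 ± 0.10, adjusted p = 0.000724 by edgeR), Pdgfb (0.61 ± 0.08), Ifng (0.50) and Ltb (0.56) were higher and Igf1 (-0.81 ± 0.09), Inhba (-0.58 ± 0.11) and Csf3 (-2.64) were lower. Of all genes, 9.18% were called in that comparison. The 2 comparisons share no samples. Of the other cytokine genes, Inhba and Csf3 (0.92 in AMPK-cKO) were called higher in AMPK-cKO and lower in late-stage TAMs. Ifng (1.76), Ltb (0.45) and Pdgfb (0.24 in AMPK-cKO) were higher in both, and Igf1 was lower in both. In the lists above, Nfkbie (0.67 in AMPK-cKO), Stat4 (0.47), Hif1a (0.40), Nfil3 (0.26), Lifr (0.18) and Tnfrsf1b were likewise higher in AMPK-cKO and lower in late-stage TAMs, Il27ra (0.63), Tnip1 (0.31), Nfkb1 and Tgfbr1 were higher in both, and Il10rb was lower in both. The late-stage counts of the other cytokine genes were 2 higher and 1 lower without early-stage replicate 2, late-stage replicate 2 or late-stage replicate 3. Without early-stage replicate 3 their lower count was 5. Calls shared by the 2 comparisons were not recomputed with a library left out. Il10rb, Il27ra, Lifr, Nfkbia, Atf3, Zfp36, Tnfsf9, Tnfsf12, Areg, Ifng, Ltb and Csf3 were named after their values had been seen, as was Nfkb1 in the stage comparison.

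Markers of other cell types also differed between the groups. Over all genes tested, 21.1% were called in AMPK-cKO against WT and 9.18% in the stage comparison. In AMPK-cKO against WT, 8 of 8 conventional dendritic cell markers were higher (summed level 108 to 119 CPM in WT and 180 to 185 CPM in AMPK-cKO), and Batf3 is on that list too. All 7 NK cell markers were higher (33.3 to 37.2 CPM in WT and 81.7 to 84.9 CPM in AMPK-cKO), as were 7 of 8 T cell markers (165 to 178 and 267 to 281 CPM), 4 of 7 neutrophil markers tested (132 to 136 and 199 to 204 CPM) and 6 of 6 fibroblast markers (570 to 617 and 741 to 822 CPM). Ly6g, a defining neutrophil marker, had no count in any WT or AMPK-cKO sample. Melanoma markers were lower for 6 of 7 (998 to 999 and 676 to 716 CPM). Of 7 B cell markers, 2 were higher and 4 lower, with Cd79a, Ms4a1 and Pax5 (lower, chosen after their values were seen) at 3.14 to 5.13 CPM in WT and 0.033 to 0.392 CPM in AMPK-cKO, while the summed level was 172 to 181 CPM in WT and 217 to 221 CPM in AMPK-cKO. Of 4 endothelial markers tested, 2 were higher and 1 lower (50.1 to 58.0 CPM in WT and 116 to 120 CPM in AMPK-cKO), both basophil or mast cell markers tested were higher (7.34 to 9.28 and 15.9 to 18.2 CPM), and 1 of 4 plasmacytoid dendritic cell markers tested was lower (554 to 644 and 428 to 466 CPM). Ms4a2, a defining mast cell and basophil marker, had no count in these samples. Among the 12 macrophage markers, 2 were higher and 2 lower (14974 to 16240 CPM in WT and 14585 to 14834 CPM in AMPK-cKO). In late-stage against early-stage TAMs, 5 of 7 NK cell markers were lower (89.2 to 103 CPM in early-stage and 39.7 to 54.2 CPM in late-stage), 4 of 7 B cell markers were higher (188 to 203 and 289 to 359 CPM), and 5 of 7 melanoma markers were lower (1663 to 1807 and 767 to 1203 CPM). There 3 of 6 fibroblast markers (801 to 878 and 393 to 555 CPM) and 3 of 6 neutrophil markers tested (141 to 154 and 115 to 117 CPM) were lower, 3 of 8 T cell markers were higher and 1 lower (279 to 303 and 287 to 325 CPM), and of 8 conventional dendritic cell markers 1 was higher and 2 lower (122 to 125 and 130 to 134 CPM), 1 of 5 endothelial markers was lower (83.7 to 87.8 and 76.5 to 80.5 CPM), plasmacytoid dendritic cell markers summed to 334 to 566 and 474 to 483 CPM, basophil or mast cell markers to 5.45 to 10.1 and 4.10 to 6.30 CPM, and of 12 macrophage markers 1 was higher and 2 lower (11333 to 13643 and 13775 to 13832 CPM). The part of these cells in the levels of the 10 members, the receptor genes, the other cytokine genes or the other listed genes was not tested.

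Differences between 2 genes within a sample were compared for 5 pairs in each comparison with a two-sided exact permutation test, whose smallest p with 3 samples against 3 is 0.1, so no pair could pass. On the log2 CPM scale, Il10 exceeded Il12b by 1.82 ± 0.40 in WT and by 0.93 ± 0.12 in AMPK-cKO (mean ± SD, n = 3, exact permutation p = 0.1, adjusted over 10 tests 0.333). Ebi3 exceeded Il27 by 2.90 ± 0.22 in WT and by 2.24 ± 0.27 in AMPK-cKO (exact permutation p = 0.1). Il15ra was below Il15 in both groups, by a difference of -1.17 ± 0.18 in WT and -0.36 ± 0.08 in AMPK-cKO (exact permutation p = 0.1). The other 7 tests had an exact p of 0.2 to 0.8.

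The genes whose log2 CPM pattern was nearest to that of a called member were sought among 10562 genes with a mean of at least 5 CPM, by the root mean square difference over the 12 samples after each table was centred on its own mean. For Tnfsf13b these were Htra4 (0.16), Sh2d1b1 (0.16) and Fcrl5 (0.17), against 0.65 for Tnfsf13b's own spread around its mean. For Il12b they were Dusp16 (0.11), Tmem154 (0.13) and Rab11fip1 (0.13), and for Il27 they were H2-Q6, Ramp3 and Mag (0.20 to 0.21). For Osm they were Mphosph6 (0.06), Procr (0.07) and Phlda1 (0.07), and for Tnf they included Gstz1 and Rpp21 (0.10). The own spread of these members was smaller than that of Tnfsf13b, at 0.36 for Il12b, 0.48 for Il27, 0.19 for Osm and 0.25 for Tnf.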

How the data were processed

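Total RNA of sorted TAMs was sequenced in 12 samples. The submitters' processing notes name FastQC, HISAT2, featureCounts and DESeq2, and the authors deposited raw counts per gene in 1 table per comparison, without normalization; tool versions, strand and the handling of multiply mapped reads are not given in the sources used here. The paper writes GRCh38 for mouse, while the gene identifiers of all 10 members match GENCODE M21 (GRCm38) with their version. Library totals of 71019494 to 84470374 counts bound the precision, and errors between samples are given as SD or SE.

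Each table was fitted on its own. Counts were filtered with filterByExpr, scaled by TMM and tested in edgeR 4.0.16 (R 4.3.3) by quasi-likelihood, with p-values adjusted by the Benjamini-Hochberg method over all genes tested; a gene with an adjusted p under 0.05 was called, at any fold. SE was the log2 fold change divided by the root of F. CPM used TMM-scaled totals, and log2 CPM a prior count of 2. Other settings tried were DESeq2 1.42.0, upper-quartile or RLE factors, 2 other filters, a fold threshold, a replicate block and each library left out; those for the pathway lists were added after seeing the data. The test was checked on simulated data. The members and lists were chosen with earlier results of these data known. Named genes were the members, fixed partners and receptors, and the 4 called genes of smallest adjusted p in each list, and the 3 genes nearest in pattern to each called member; some genes that this rule covers are not reported here. Promoters came from RefSeq (GRCm38.p6), and figures from matplotlib 3.10.9.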

Additional observations from a re-analysis of the deposited data

How the results depend on the processing

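Of 581 values recomputed under alternatives, 498 stayed the same, 64 counts moved further, 12 values changed sign, 5 lost their call and 2 gained one. A fold change stayed the same if it kept its direction and side of the threshold, and a count if it stayed within 1.5 times. A difference between 2 genes stayed the same if it kept its sign and shifted by less than the larger group SD. The 3 higher members in AMPK-cKO (Tnfsf13b, Il27, Il12b) were called in every refit, and with a log2 fold change threshold of 1 Il12b dropped out with edgeR (2 left) and gave way to Il12a with DESeq2 at an unadjusted p (3). The lower count in AMPK-cKO was 1 with no filter on low counts, 0 with a fold threshold of 1 with DESeq2 or edgeR, and 1 to 2 with 1 library left out; in late-stage TAMs leaving out 1 library gave 1 to 2 higher and 0 to 1 lower. Over all genes, leaving out 1 library gave 1334 to 2102 higher (1334 without AMPK-cKO replicate 2) and 1068 to 1937 lower (1068 without WT replicate 3) in AMPK-cKO, and 284 to 1514 higher and 369 to 1321 lower in late-stage TAMs, lowest without late-stage replicate 2 and highest without early-stage replicate 1. DESeq2 called 1162 genes higher in late-stage TAMs, and no filter left 429 higher and 507 lower. Pathway list counts with 1 library left out ranged in AMPK-cKO from 3 to 5 (regulators, lower), 9 to 15 (other cytokines, higher) and 3 to 4 (other cytokines, lower). In late-stage TAMs they were 1 to 3 higher and 0 to 6 lower (receptors), 0 to 1 either way (partners), 0 to 5 and 0 to 3 (signalling), 0 to 3 and 3 to 11 (regulators) and 2 to 4 and 1 to 5 (other cytokines). DESeq2 gave 1 higher and 1 lower partner gene, 2 higher regulators and 5 lower other cytokines there, and upper-quartile factors gave 0 higher regulators. The replicate number did not pair samples (same-number correlations of deviations -0.0039 to 0.042), and not every sample correlated best with its own number. The replicate block left the member counts at 3 higher and 2 lower in AMPK-cKO and 1 and 0 in late-stage TAMs, with 2029 and 1833, and 674 and 743 genes called, and gave Il15 0.0027 in AMPK-cKO. Signs changed for members near 0. With 1 library left out, Il15 in AMPK-cKO ranged from -0.090 to 0.051, Tgfb1 from -0.038 to 0.023 and Il10 from -0.21 to 0.071, and in late-stage TAMs Tnf ranged from -0.016 to 0.37, Il10 from -0.15 to 0.26 and Il15ra minus Il15 from -0.068 to 0.15, with the negative Tnf and Il10 values without early-stage replicate 3. The cause was not tested. Depth limits Il12a, with 0 to 62 counts.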
